A study of Mus musculus with 6 samples.

Results

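Type 2 conventional dendritic cells (cDC2s) of the mouse spleen were taken as the barcodes that satisfied a marker rule, and they made up 77 of the 20161 cells that passed the quality limits, out of 29005 barcodes in all. The cells were selected on transcript counts, which are counts of unique molecular identifiers (UMIs, one per captured RNA molecule). A cell with 300 to 5000 genes and at most 10% mitochondrial UMIs was a cDC2-rule cell if it held at least 10 UMIs of H2-Ab1 and at least 1 UMI of 2 or more of Flt3, Zbtb46, Clec4a4, Itgax and Cd209a. It also had to hold no UMI of Xcr1 or Clec9a (genes of type 1 conventional dendritic cells, cDC1s), Siglech (plasmacytoid dendritic cells), Cd79a (B cells) or Cd3d, Cd3e and Cd3g (T cells). The levels of these genes are therefore a description of the choice and not a result.

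The study profiled spleen cells of male C57BL/6 mice by CITE-seq, in which droplet RNA sequencing is combined with 34 DNA-tagged antibodies against surface proteins. The groups were mice of 20 months given recombinant mouse PF4 (platelet factor 4, a chemokine released by platelets) through the tail vein, mice of 20 months given saline and mice of 3 months given saline. Splenocytes of 5 mice per group were pooled into 1 library, and red cells were lysed first. The 3 libraries share 1 count matrix, in which a suffix on each barcode separates them, and no label ties a suffix to a group. The libraries are therefore called 1, 2 and 3, no value below belongs to a known age or treatment, and no comparison of PF4 with saline or of old with young mice was made.

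Conventional dendritic cells sample antigen, carry it to T cells and display it as peptide on major histocompatibility complex (MHC) molecules. cDC1s depend on IRF8 and BATF3 and are known for presenting antigen to CD8 T cells, whereas cDC2s carry SIRPα and CD11b, depend on factors such as IRF4, RELB and KLF4, and mainly prime CD4 T cells. In the mouse spleen, cDC2s are commonly divided into an ESAM-high kind, which depends on NOTCH2 and carries CLEC4A4 (DCIR2) and CD4, and an ESAM-low kind that shares genes such as Ccr2, Cx3cr1, Lyz2 and Csf1r with monocytes. The level of a gene is given below as its UMIs per 1000000 RNA UMIs of the same cells (CPM), with exact Poisson 95% intervals in brackets. Shares of cells carry exact binomial (Clopper-Pearson) 95% intervals. Both kinds of interval cover counting error only, since each library is 1 pool of mice without a replicate.

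Libraries 1, 2 and 3 held 24, 27 and 26 cDC2-rule cells. These were 0.572% (0.366 to 0.849) of the kept cells of library 1, 0.359% (0.237 to 0.523) of library 2 and 0.308% (0.201 to 0.451) of library 3, and the 3 intervals overlapped. Detection of a rule gene depends on depth, so the rule was repeated on cells thinned to 2000 UMIs with an H2-Ab1 minimum of 3 UMIs. It then took 0.365%, 0.286% and 0.423% of the cells of libraries 1, 2 and 3, so the order of the libraries changed and none is read from these shares. The thinned rule took 56 cells, of which 35 were among the 77. Thinning also removes UMIs of the excluded genes, and 4562 kept cells below 2000 UMIs were left out. The thinned set is therefore partly made of other cells. There were 1.33, 1.35 and 0.897 cDC2-rule cells per cDC1-rule cell in libraries 1, 2 and 3.

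The cDC2-rule cells were deeper than the average spleen cell. Their median depth was 9726, 8271 and 7192 UMIs in libraries 1, 2 and 3, against 3741, 3625 and 3765 UMIs over all kept cells. A cell held between 1659 and 16649 UMIs, and the cells of a library summed to 232520, 207362 and 188931 RNA UMIs. Antibody counts summed to 77532, 86593 and 67257 per library. The doublet caller Scrublet marked 504 kept cells (2.50%) and none of the cDC2-rule cells. In the matrix, 68 barcode sequences occurred under more than 1 suffix, 1 of them a cDC2-rule cell.

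Of 5016 kept cells with at least 10 H2-Ab1 UMIs, 159 were free of the exclusion genes. Of these, 45 held none of the 5 marker genes, 37 held 1, and 35, 24, 16 and 2 held 2, 3, 4 and 5. Just inside the limit, the 35 cells with exactly 2 markers had a median CD11c antibody count of 110, against 32 in the 37 cells just outside with exactly 1 marker. SIRPα (CD172a) medians were 68 inside and 63 outside, and CD11b medians were 52 inside and 76 outside. The H2-Ab1 limit lay in a sparse region: 3 of the 77 cells held 10 to 14 UMIs, and 5 further cells with 5 to 9 UMIs passed every other condition. Another 2 barcodes satisfied the marker rule but exceeded the mitochondrial limit.

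Among the genes of the rule, Flt3 and Itgax carried most of the cells and Zbtb46, Cd209a and Clec4a4 a fraction of them. Flt3 (chromosome 5, 147330741 to 147400489, mm10, the receptor for the cytokine that drives dendritic cell development) stood at 262, 256 and 286 CPM in libraries 1, 2 and 3, and 67 of 77 cells held a UMI. Itgax (chromosome 7, 128129547 to 128150657, the gene of CD11c) stood at 357, 366 and 355 CPM and was also detected in 67 cells. These levels lay within each other's counting error across the libraries.

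Zbtb46 (chromosome 2, 181387762 to 181459426), a transcription factor restricted to conventional dendritic cells among immune cells, stood at 90.3, 62.7 and 42.3 CPM and was seen in 27 cells. Cd209a (chromosome 8, 3743397 to 3748984), a C-type lectin, stood at 245, 323 and 545 CPM in libraries 1, 2 and 3 and was seen in 44 cells. Clec4a4 (chromosome 6, 122990367 to 123024105), the gene of DCIR2, gave 9, 2 and 2 UMIs in the libraries, in 11 cells in all. Among 4354 cells with a Cd3d, Cd3e or Cd3g UMI, whose median depth was 5023 UMIs, the share with a UMI was 0.781% for Flt3, 3.97% for Itgax, 0.597% for Zbtb46, 0.482% for Cd209a and 0.0689% for Clec4a4.

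The antibodies took no part in the rule and give a partial check of the label, since CD11c is the protein of Itgax, a rule gene. CD11c antibody made up 6.84%, 7.43% and 5.85% of the antibody counts of the cDC2-rule cells in libraries 1, 2 and 3, against 0.676%, 0.735% and 0.746% in the other kept cells, a geometric mean ratio of 9.29. CD11b antibody made up 2.98%, 2.0% and 2.45% in cDC2-rule cells, against 0.692%, 0.440% and 0.452% in the other kept cells, a ratio of 4.73. SIRPα antibody made up 2.37%, 2.9% and 2.91% in cDC2-rule cells, against 1.05%, 0.967% and 1.09% in the other kept cells, a ratio of 2.62. For all 3 proteins the groups did not overlap across libraries, and they were the 3 of 34 antibodies (8.82%) with at least 1.5 times the share of the other kept cells in every library.

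Lower by at least 1.5 times in every library were 6 antibodies (17.6% of the panel). CD45R/B220, a B cell form of CD45, made up 1.79%, 2.95% and 2.30% in cDC2-rule cells, against 5.60%, 8.37% and 8.5% in the other kept cells. Of the others, CD38, CD27, CD24 and CD5 had ratios of 0.396, 0.327, 0.432 and 0.517. With 3 libraries the exact sign-flip permutation test cannot give a two-sided p below 0.25, which is the value it gave for CD11c, CD11b, SIRPα and CD45R/B220 (n = 3 libraries). Itgax is a rule gene and the rule excluded cells with Cd79a, so the directions of CD11c and CD45R/B220 were shaped by the choice of cells.

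Against cDC1-rule cells, which were 67 cells chosen the same way but with a Xcr1 or Clec9a UMI, the surface proteins known to divide the subsets stood apart. CD11b and SIRPα were the 2 antibodies (5.88% of the panel) at least 1.5 times higher in the cDC2-rule cells in every library. CD11b made up 0.974%, 0.637% and 0.962% in cDC1-rule cells of libraries 1, 2 and 3, a ratio of cDC2-rule to cDC1-rule cells of 2.9, and SIRPα made up 1.05%, 1.06% and 1.5%, a ratio of 2.29. XCR1, CD8a and CD24 were the 3 antibodies (8.82%) at least 1.5 times lower.

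XCR1, a chemokine receptor of cDC1s, made up 0.415%, 0.738% and 0.492% in cDC2-rule cells, against 1.53%, 1.56% and 1.81% in cDC1-rule cells, and its gene was excluded by the rule. CD8a, which splenic cDC1s carry, made up 0.904%, 2.32% and 1.58% in cDC2-rule cells, against 5.35%, 5.37% and 6.73% in cDC1-rule cells. CD24 made up 10.5%, 5.60% and 8.66% in cDC2-rule cells, against 29.5%, 22.6% and 16.4% in cDC1-rule cells. The 3 libraries of the cDC2-rule cells lay below all 3 of the cDC1-rule cells for each of these proteins (exact permutation p = 0.25 each, the smallest that 3 libraries allow).

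CD11c did not separate the subsets. Its share was higher in cDC2-rule cells in libraries 1 and 2 and lower in library 3 (5.85% in cDC2-rule cells, against 7.07% in cDC1-rule cells). I-A/I-E (MHC class II) made up 24.8%, 18.2% and 18.5% in cDC2-rule cells, against 12.7%, 15.8% and 15.2% in cDC1-rule cells, a ratio of 1.40. CD4 made up 0.520%, 0.952% and 0.819% in cDC2-rule cells, against 0.211%, 0.410% and 0.579% in cDC1-rule cells, a ratio of 2.01. Both were higher in each of the 3 libraries.

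**Figure D1:**
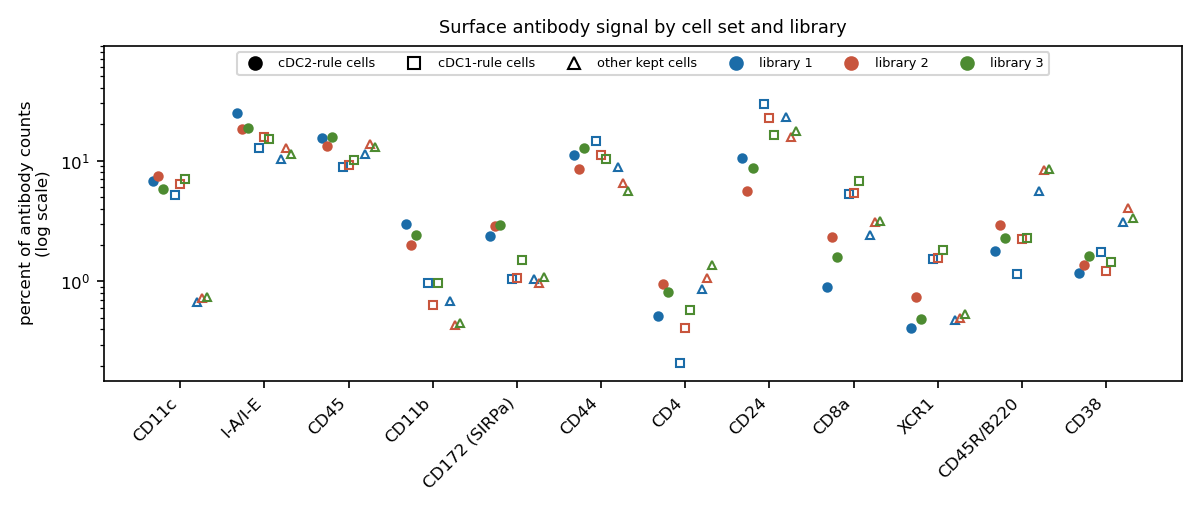
Share of all antibody counts taken by each antibody (percent, log axis) in the cDC2-rule cells, the cDC1-rule cells and the other kept cells, with 1 point per library. CD11c, CD11b and SIRPα of the cDC2-rule cells lie above the other kept cells in all 3 libraries, and XCR1, CD8a and CD24 lie below the cDC1-rule cells in all 3.

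Single cells spread widely around these shares. The CD11c count of a cDC2-rule cell was 4 at the lowest, 178 at the median and 775 at the highest, against 17, 162 and 574 in cDC1-rule cells. SIRPα counts had a minimum of 10, a median of 68 and a maximum of 745 in cDC2-rule cells, against 3, 25 and 175 in cDC1-rule cells. CD8a counts had a median of 26 in cDC2-rule cells and 100 in cDC1-rule cells. The 2 subsets thus overlapped cell by cell for each protein. One cell of library 2 held 21507 antibody counts, 1239 of them for CD8a.

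Markers of other cell types were low for some types and not for others. The basophil list of 6 genes was at 0 in the cDC2-rule cells. The T cell list without the 3 genes that the rule excluded had 1 of 8 genes at 0 and summed to 4.30, 9.64 and 42.3 CPM in libraries 1, 2 and 3, against 1116, 1495 and 1511 CPM over all kept cells. The B cell list without Cd79a, which the rule excluded, held 11 genes and summed to 404, 738 and 990 CPM, against 23957, 21684 and 14967 CPM over all kept cells. The NK cell list of 9 genes, Ccl5 among them, summed to 288, 294 and 1006 CPM, against 3405, 3058 and 1408 CPM, and the non-classical monocyte list of 10 genes to 469, 622 and 794 CPM, against 539, 660 and 702 CPM. Both were nearest to all kept cells, or above them, in library 3. Of the 77 cells, 31 (40.3%) held a Ms4a1 or Cd79b UMI, against 29.0% of the Cd3-positive cells, and after thinning to 2000 UMIs the shares were 19.7% and 12.9%. Pf4, the platelet gene of the injected protein, was found in 3 cells. The part of other cells' RNA in the results below was not tested beyond the values given beside them.

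For the macrophage list, a level of 477 CPM over the 3 libraries together rested on few cells. It summed to 318, 217 and 958 CPM in libraries 1, 2 and 3, against 517, 186 and 170 CPM over all kept cells, and 62.2%, 53.3% and 76.2% of its UMIs lay in 1 cell of each library. The classical monocyte list of 9 genes summed to 2791, 3144 and 2472 CPM in the cDC2-rule cells, against 1555, 1226 and 1120 CPM over all kept cells. Its members ran both ways. S100a4 (2110 CPM in cDC2-rule cells, against 167 CPM in the other kept cells), Ccr2 (275 against 81.8 CPM), Ms4a4c (232 against 119 CPM) and Fn1 (82.7 against 63.3 CPM) were above the other kept cells. Ly6c2 (66.8 against 250 CPM) and F13a1 (25.4 against 27.1 CPM) were below, and Vcan and Chil3 gave no UMI (interval up to 5.87 CPM each, against 7.97 and 84.9 CPM).

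For the comparison with cDC1-rule cells, 3436 genes with at least 50 CPM in either set were measured. A gene was called where the CPM ratio was at least 2 in the same direction in all 3 libraries and the Poisson intervals overlapped in none of them. This gave 64 genes higher (1.86%) and 50 lower (1.46%) in cDC2-rule cells, with a median log2 ratio of 0.16 over all genes measured. Both sets were chosen on RNA of the same cells, so these calls are descriptions and carry no p-value. In library 1 the cDC1-rule cells held 36334 CPM of Hbb-bs and 13335 CPM of S100a9, against 366 and 778 CPM in the cDC2-rule cells. Those are genes of red cells and neutrophils, and their part in the calls was not tested. Without library 1, 86 genes were higher and 62 lower, but fewer libraries then have to pass, so a called gene could be lost only by falling under the limit of 50 CPM.

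Of the 20 genes listed for cDC2 identity outside the rule, 14 were measured, 5 were higher (Sirpa, Klf4, Relb, Cd7 and Ltb) and 1 was lower (Clec12a), with a median log2 ratio of 1.90. Sirpa (chromosome 2, 129592835 to 129632228), the gene of the SIRPα receptor that binds CD47, stood at 236, 381 and 360 CPM in cDC2-rule cells of libraries 1, 2 and 3, against 60.3, 41.4 and 130 CPM in cDC1-rule cells. Over the libraries together that was 321 CPM (278 to 369), against 84.2 CPM (64.4 to 108), a ratio of 3.82. Every library of the cDC2-rule cells lay above every library of the cDC1-rule cells, as it did for the SIRPα antibody.

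Relb, an NF-κB subunit required for splenic cDC2s, stood at 198, 338 and 265 CPM in cDC2-rule cells, against 38.7, 62.1 and 46.8 CPM in cDC1-rule cells, a ratio of 5.47. Klf4, a zinc finger factor, stood at 86.0, 91.6 and 116 CPM against 21.5, 15.5 and 30.1 CPM, a ratio of 4.14. Ltb, the lymphotoxin beta ligand that lymphoid tissue stroma receives, stood at 344, 434 and 418 CPM against 43.0, 67.2 and 90.3 CPM, a ratio of 5.74. None of these ranges overlapped between the subsets.

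Cd7 (chromosome 11, 121036747 to 121039418), a surface protein better known from T and NK cells, stood at 404, 318 and 185 CPM in cDC2-rule cells, against 4.30, 87.9 and 60.2 CPM in cDC1-rule cells, a ratio of 6.24. A Cd7 UMI was present in 48 of the 77 cells (62.3%), against 2.05% of Cd79a-positive cells. Clec12a, an inhibitory lectin, was lower at 21.5, 62.7 and 84.7 CPM in cDC2-rule cells, against 94.7, 171 and 201 CPM in cDC1-rule cells, a ratio of 0.341.

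S100a4 (chromosome 3, 90603771 to 90606045), a calcium-binding protein of motile leukocytes, was among the 10 leading higher genes. It stood at 2043, 2532 and 1731 CPM in cDC2-rule cells, against 81.8, 403 and 394 CPM in cDC1-rule cells, which is 2110 CPM (1998 to 2227) against 297 CPM (258 to 339) and a ratio of 7.11. A cDC2-rule cell held 0 to 65 UMIs with a median of 16, against 0 to 49 with a median of 0 in cDC1-rule cells, and 70 of 77 cells (90.9%) held at least 1, compared with 18.1% of Cd3-positive cells. In the 194 monocyte-marker cells S100a4 stood at 2112 CPM, so the gene does not separate cDC2-rule cells from those. The 10 were ranked by the ratio of the library where it was smallest. Beside S100a4, Relb and Ltb they were Ms4a4c (232 CPM in cDC2-rule cells, against 26.2 CPM in cDC1-rule cells), Sash1 (108 against 11.0 CPM), Clec4a1 (110 against 13.8 CPM), Cyp4f16 (175 against 17.9 CPM), Ddit4 (77.9 against 9.66 CPM), Ffar2 (291 against 35.9 CPM) and Pou2f2 (274 against 52.4 CPM).

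Itgam, the gene of CD11b, missed the call although the antibody did not: it stood at 112, 130 and 148 CPM in cDC2-rule cells, against 64.6, 10.3 and 13.4 CPM in cDC1-rule cells. The ratio in library 1 was 1.73, and the call was met in the other 2 libraries, over which the ratio was 11.4. Zeb2, a repressor needed for cDC2 development, stood at 288, 357 and 439 CPM against 43.0, 98.3 and 247 CPM. Its ratio in library 3 was 1.78, and it was called without that library. Irf4, the factor most often named for cDC2s, was sparse, with 6, 6 and 5 UMIs in the libraries (27.0 CPM) against 19.3 CPM in cDC1-rule cells, and was below the level at which genes were measured.

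Several calls were lost in alternative settings. In one alternative the cells of either set that held a Ms4a1 or Cd79b UMI, 31 of them cDC2-rule cells, were left out. Cd7, Klf4, Runx3, Ccl5, Clec4a1 and Ifitm1 were then no longer called, at ratios of 9.09, 3.46, 3.49, 13.2, 8.29 and 2.51. Leaving out cells also widens the Poisson intervals, so a call can be lost without a fall in its ratio. By the mean of per-cell CPM, Sirpa, Cd7, Klf4, Nfkb1, Ccl5 and Id2 were not called, at ratios of 3.28, 4.73, 4.16, 2.2, 4.95 and 0.371.

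**Figure D2:**
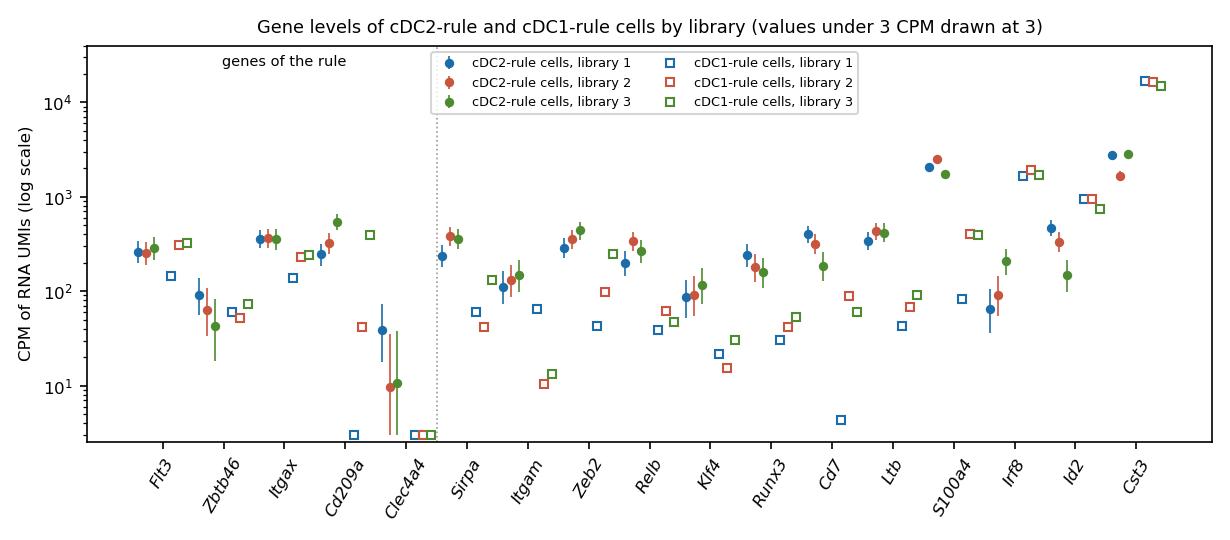
Levels of 17 genes (CPM, log axis) in each library, with filled points for cDC2-rule cells (bars are exact Poisson 95% intervals) and open squares for cDC1-rule cells, and genes of the rule at the left. Sirpa, Relb, Klf4, Cd7, Ltb and S100a4 lie higher in cDC2-rule cells in every library, and Irf8, Id2 and Cst3 lie lower.

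The genes of the cDC1 list ran the other way. Without Xcr1 and Clec9a, which the rules used, 8 of 11 measured genes were lower and the median log2 ratio was -4.24. Irf8 (chromosome 8, 120736358 to 120756694), the factor on which cDC1s depend, stood at 64.5, 91.6 and 206 CPM in cDC2-rule cells, against 1679, 1903 and 1685 CPM in cDC1-rule cells, a ratio of 0.0667. Naaa, a lysosomal amidase, stood at 79.5 CPM against 854 CPM. Tlr3, the receptor for double-stranded RNA, stood at 6.36 CPM (4 UMIs) against 192 CPM, and Cadm1, an adhesion molecule, at 11.1 CPM against 265 CPM. Cd8a gave no UMI in the 77 cells (interval up to 5.87 CPM), against 276, 145 and 288 CPM in cDC1-rule cells, and Gcsam was also at 0 against 134 CPM. Snx22 and Rab7b completed the 8.

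Cst3 (chromosome 2, 148871722 to 148875692), which encodes the protease inhibitor cystatin C, had the largest CPM difference of the 50 lower genes. It stood at 2774, 1678 and 2832 CPM in cDC2-rule cells, against 16947, 16591 and 14973 CPM in cDC1-rule cells, a ratio of 0.152. Ppt1, a lysosomal thioesterase, stood at 90.3, 121 and 122 CPM against 1248, 1717 and 1511 CPM, a ratio of 0.0741. Cd36, a scavenger receptor, gave 2 UMIs against 149 CPM in cDC1-rule cells, and P2ry14, a receptor for UDP-sugars, gave 1 UMI against 170 CPM. The libraries of the subsets did not overlap for any of these genes.

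**Figure D3:**
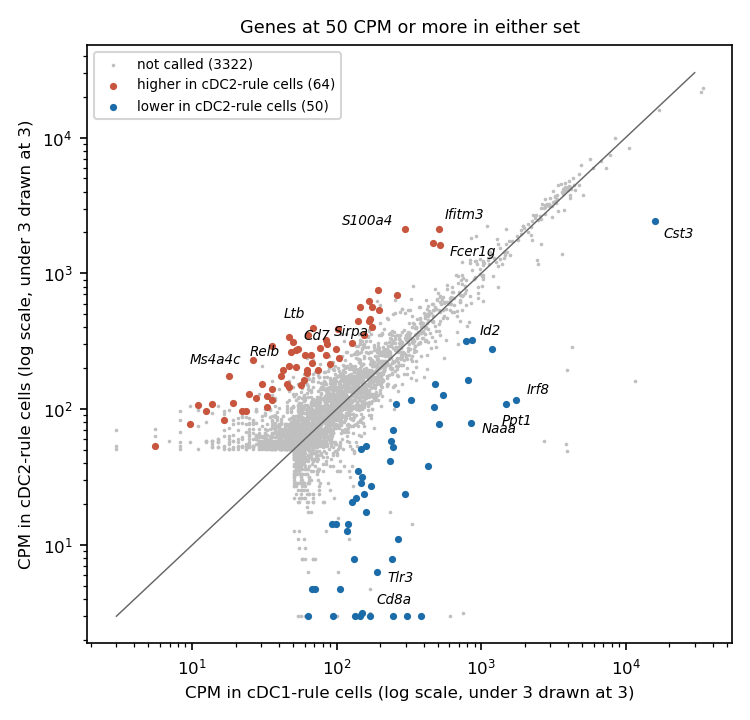
Level of each measured gene in cDC2-rule cells (vertical axis, CPM, log scale) against cDC1-rule cells (horizontal axis, CPM, log scale) over the 3 libraries together, with called genes in colour and the line of equal level drawn. The 64 higher genes, such as S100a4 and Ltb, lie above the line and the 50 lower genes, such as Irf8, Ppt1 and Cst3, below it.

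Of 19 measured transcription factors of dendritic cells, 3 were higher (Klf4, Relb and Runx3) and 2 lower (Irf8 and Id2). Runx3, a factor of dendritic cells and cytotoxic lymphocytes, stood at 241, 178 and 159 CPM in cDC2-rule cells, against 30.1, 41.4 and 53.5 CPM in cDC1-rule cells, a ratio of 4.57. Id2, which represses E proteins, stood at 464, 333 and 148 CPM against 943, 957 and 735 CPM, a ratio of 0.379. Batf3, required for cDC1s, stood at 150 CPM (121 to 183) against 250 CPM (215 to 289) and was not called. Spi1, the gene of PU.1, stood at 636 CPM against 415 CPM and was not called.

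The NF-κB list gave 3 higher genes of 8 measured and none lower. Nfkb1, the gene of p105 and p50, stood at 508, 584 and 535 CPM in cDC2-rule cells, against 99.0, 253 and 234 CPM in cDC1-rule cells, a ratio of 2.76. Nfkbie, an inhibitor induced by the pathway, stood at 81.7, 164 and 106 CPM against 17.2, 62.1 and 33.4 CPM, a ratio of 3.24, and Relb was the other. Nfkbia, the best-known feedback inhibitor, stood at 305 CPM against 145 CPM and was not called.

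Genes of antigen presentation by MHC class II gave no call between the subsets. None of 10 measured genes outside the rule passed in either direction, and their median log2 ratio was 0.12. Cd74, the invariant chain, stood at 15457, 14545 and 17652 CPM in cDC2-rule cells, against 14644, 17393 and 18714 CPM in cDC1-rule cells. H2-Aa stood at 6727 CPM (6526 to 6933) against 6707 CPM (6519 to 6898), and Ciita, the transactivator of the genes, at 592 CPM against 457 CPM. H2-Ab1 was used by both rules, with 5917 CPM against 7278 CPM. The ranges over libraries overlapped for each of these genes, whereas the I-A/I-E antibody shares did not. By the median count of a cell, that antibody did overlap, at 466.5, 342 and 358.5 in cDC2-rule cells against 280, 286.5 and 354 in cDC1-rule cells. The highest count, 5509, was in 1 cDC2-rule cell of library 1.

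None of 15 measured genes of MHC class I and cross-presentation was called, with H2-K1 at 1234 CPM in cDC2-rule cells against 923 CPM in cDC1-rule cells and Tap1, a peptide transporter, at 183 CPM against 305 CPM. Of 10 measured cathepsins and cystatins, Ctsa was higher and Cst3 lower. Ctsa, a lysosomal carboxypeptidase, stood at 224, 207 and 175 CPM in cDC2-rule cells, against 38.7, 51.7 and 63.5 CPM in cDC1-rule cells, a ratio of 3.88. Ctss, which trims the invariant chain, stood at 1221 CPM (1136 to 1311) against 741 CPM (680 to 806) and was not called because the ratio was below 2 in libraries 2 and 3.

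Among lectins and Fc receptors, Fcer1g and Clec4a1 were higher. Fcer1g, the common gamma chain, stood at 1587, 1524 and 1736 CPM in cDC2-rule cells, against 491, 445 and 582 CPM in cDC1-rule cells, a ratio of 3.12, and was the 1 higher gene of 6 measured Fc and complement receptors. Clec4a1, a lectin of the DCIR cluster, stood at 73.1, 121 and 143 CPM against 12.9, 5.17 and 20.1 CPM, a ratio of 7.95. Its neighbours Clec4a2 (87.5 against 23.4 CPM) and Clec4a3 (135 against 46.9 CPM) were not called. Clec4a genes are close copies of each other, and reads that match several of them could have been left out when the counts were made.

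The cells held little transcript of effector cytokines. Il12b, Il6, Il23a and Il10 gave no UMI in the 77 cells, with an interval up to 5.87 CPM each. Il1b stood at 262, 38.6 and 111 CPM in libraries 1, 2 and 3, and Tgfb1 at 292, 347 and 429 CPM. Of 4 measured cytokines 1, Ltb, was called higher than in cDC1-rule cells.

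Of 5 measured chemokines, 1 was higher and 1 lower. Ccl5, which draws T cells and monocytes, stood at 176, 236 and 651 CPM in cDC2-rule cells, against 43.0, 36.2 and 56.8 CPM in cDC1-rule cells, a ratio of 7.22, although the other kept cells, T and NK cells among them, stood at 1833 CPM. Cxcl9, a ligand of CXCR3, gave 0, 9 and 2 UMIs in the cDC2-rule cells, against 38.7, 145 and 264 CPM in cDC1-rule cells. Ccl17 gave no UMI and Ccl22 gave 1.

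None of 8 measured genes of the CCR7-positive mature state was called. Ccr7 itself, the receptor that guides dendritic cells into T cell zones, gave 2, 0 and 5 UMIs. The costimulatory genes Cd80, Cd86 and Cd40 stood at 17.5, 38.2 and 54.1 CPM in cDC2-rule cells, against 19.3, 127 and 20.7 CPM in cDC1-rule cells, and none was called. Cd274, the gene of PD-L1, stood at 58.8 CPM (41.4 to 81.1) against 12.4 CPM (5.68 to 23.6), and the PD-L1 antibody made up 0.908%, 1.60% and 1.11% in cDC2-rule cells, against 0.497%, 0.717% and 0.897% in cDC1-rule cells. The antibody was higher in each of the 3 libraries and the gene was not called.

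None of 8 measured growth factor receptors was called. Kit, the stem cell factor receptor, stood at 180 CPM in cDC2-rule cells against 121 CPM in cDC1-rule cells, and Csf2ra, a GM-CSF receptor chain, at 151 CPM against 154 CPM. Csf1r, the receptor of macrophage colony-stimulating factor, stood at 172, 145 and 185 CPM against 47.4, 20.7 and 107 CPM, with a ratio of 1.73 in library 3. Of the chemokine and positioning receptors, Ccr2 stood at 275 CPM against 197 CPM, Cx3cr1 at 140 CPM against 40.0 CPM and Gpr183, an oxysterol receptor that positions splenic cDC2s, at 105 CPM against 45.5 CPM. None of the 3 was called.

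Of 6 measured pattern recognition receptors, 2 were lower and none higher. These were Tlr3 and Tlr12, a profilin receptor with no UMI in cDC2-rule cells against 47.4, 93.1 and 56.8 CPM in cDC1-rule cells. Its partner Tlr11 stood at 6.36 CPM against 102 CPM but was not called. Nlrp3, an inflammasome sensor, stood at 55.7 CPM against 34.5 CPM and was not called. Of 7 measured type I interferon response genes, Ifi27l2a was higher, at 830, 381 and 455 CPM against 258, 31 and 130 CPM. No gene of the immediate early or heat shock lists was called, 6 being measured in each.

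For the receptors and partners of PF4, 4 of 11 genes were measured and none was called. Cxcr3, a chemokine receptor for PF4, gave 1 UMI in the 77 cells (1.59 CPM, 0.0403 to 8.86), against 23.4 CPM (13.7 to 37.5) in cDC1-rule cells and 31.7 CPM in the other kept cells. Lrp1, a scavenger receptor of the LDL receptor family, stood at 60.2, 140 and 68.8 CPM in cDC2-rule cells, against 8.61, 10.3 and 40.1 CPM in cDC1-rule cells. Cd44, a hyaluronan receptor, stood at 130 CPM (104 to 162) against 172 CPM (144 to 206). Sdc1 was at 0 in both subsets.

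The ESAM-high and ESAM-low kinds were only partly visible in RNA. Esam was detected in 3 of the 77 cells (3.90%, 0.811 to 11.0), against 0.115% of Cd3-positive cells, and in none after thinning. Cd4 was detected in 14 cells (18.2%), against 0.872% of Cd79a-positive cells. Dtx1, a NOTCH target, was detected in 13 cells (16.9%), against 27.2% of Cd3-positive and 21.7% of Cd79a-positive cells, and neither of those was fixed as a cell type that lacks the gene. It stood at 54.1 CPM in cDC2-rule cells, against 2.76 CPM in cDC1-rule cells, and was not called. Of the 13 cells, 12 held neither a Ccr2 nor a Cx3cr1 UMI. Of the ESAM-low genes, Clec10a was detected in 11 cells (14.3%), against 0.368% of Cd3-positive cells, and Mgl2 in 1.

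Clec4a4 and Cd209a are both genes of the rule, which shapes how often they occur together, so their overlap is a description. A Clec4a4 UMI without a Cd209a UMI was found in 6, 1 and 2 cells of libraries 1, 2 and 3, and a Cd209a UMI without Clec4a4 in 11, 15 and 16 cells. Both were found in 2 cells and neither in 24. CD11b antibody made up 2.45%, 1.28% and 1.35% in Clec4a4-only cells, against 3.76%, 3.11% and 3.5% in Cd209a-only cells. CD44 antibody made up 7.58%, 3.23% and 14.3% in Clec4a4-only cells, against 16.8%, 13.2% and 16.0% in Cd209a-only cells. CD11b was lower in all 3 libraries without overlap, and the value of library 2 is that of 1 cell.

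Of 4011 genes measured between Clec4a4-only and Cd209a-only cells, none was higher (0.0%) and 2 were lower (0.0499%). Crip1, a small zinc-binding protein, gave 358 CPM (246 to 502) in Clec4a4-only cells, against 2796 CPM (2621 to 2981) in Cd209a-only cells. Ifitm3, an interferon-induced membrane protein, gave 1376 CPM (1147 to 1637) against 2787 CPM (2612 to 2971). With 9 Clec4a4-only cells, differences in most genes were not detectable at this depth.

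A further division was chosen after the values had been seen, into 36 cells with a Ccr2 or Cx3cr1 UMI and 41 with neither. It is a description, and no test was made of it. Ccr2 (chromosome 9, 124101950 to 124113557), the receptor through which monocytes leave the marrow, was detected in 30 cells, and Cx3cr1 (chromosome 9, 119901616 to 120069879), the fractalkine receptor, in 27. A UMI of Ccr2 was found in 2.98% of Cd79a-positive cells and one of Cx3cr1 in 1.68%. Among Cd3-positive cells the shares were 16.2% and 3.01%. The cells with either gene were 9, 10 and 17 of libraries 1, 2 and 3, which is 37.5% (18.8 to 59.4), 37.0% (19.4 to 57.6) and 65.4% (44.3 to 82.8) of the cDC2-rule cells there. These intervals overlapped.

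The antibodies took no part in the division and differed between the 2 kinds of cell, but CD11c is the protein of Itgax, a rule gene. CD44, the hyaluronan receptor, made up 18.45%, 20.1% and 17.0% of antibody counts in libraries 1, 2 and 3 of the cells with Ccr2 or Cx3cr1, against 8.08%, 4.56% and 7.43% in the cells with neither. CD11b made up 4.04%, 4.18% and 3.65%, against 2.52%, 1.27% and 0.971%. These 2 antibodies (5.88% of the panel) were at least 1.5 times higher in every library, and neither overlapped.

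Lower by at least 1.5 times in every library were 4 antibodies (11.8%), among them CD11c and I-A/I-E. CD11c made up 4.83%, 4.07% and 4.66% in the cells with Ccr2 or Cx3cr1, against 7.71%, 8.55% and 7.30% in the cells with neither, and the median count of a cell was 52, 66 and 76, against 299, 315 and 219. Each of the 41 cells with neither held an Itgax UMI, whereas the lowest Itgax count in the 36 cells with either gene was 0. The CD11c difference is therefore shaped in part by the rule. I-A/I-E made up 11.8%, 11.98% and 13.6%, against 30.4%, 20.3% and 24.6%. CD25 made up 0.236%, 0.391% and 0.389%, against 0.507%, 0.669% and 0.585%. CD4 made up 0.378%, 0.414% and 0.614%, against 0.581%, 1.13% and 1.07%. Library by library, the shares of CD11c, I-A/I-E and CD25 did not overlap between the 2 kinds of cell. The cDC2-rule cells of library 2 held 86593 antibody counts, and the cell with 21507 of them was among the cells with neither. Its part in the shares of that library was not tested. By the median count of a cell, CD25 stood at 6, 8.5 and 8, against 10, 13 and 16. The CD4 medians were 8, 7.5 and 13, against 9, 19 and 27.

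H2-Ab1 RNA did not follow the MHC class II antibody. It stood at 6265 CPM (5984 to 6556) in the cells with Ccr2 or Cx3cr1 and 5603 CPM (5351 to 5864) in the cells with neither. The antibody against CCR2 itself made up 1.47%, 2.11% and 1.66% in cells with Ccr2 or Cx3cr1, against 1.32%, 2.24% and 1.59% in cells with neither. In the monocyte-marker cells it made up 1.48%, 2.025% and 1.91%, against 1.83%, 2.18% and 2.07% in the other kept cells. Since it stood no higher in monocyte-marker cells, it cannot show whether the protein followed the gene. SIRPα antibody made up 2.82%, 2.72% and 2.82%, against 2.17%, 2.96% and 3.02%. For CCR2 and SIRPα the direction differed between libraries.

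**Figure D4:**
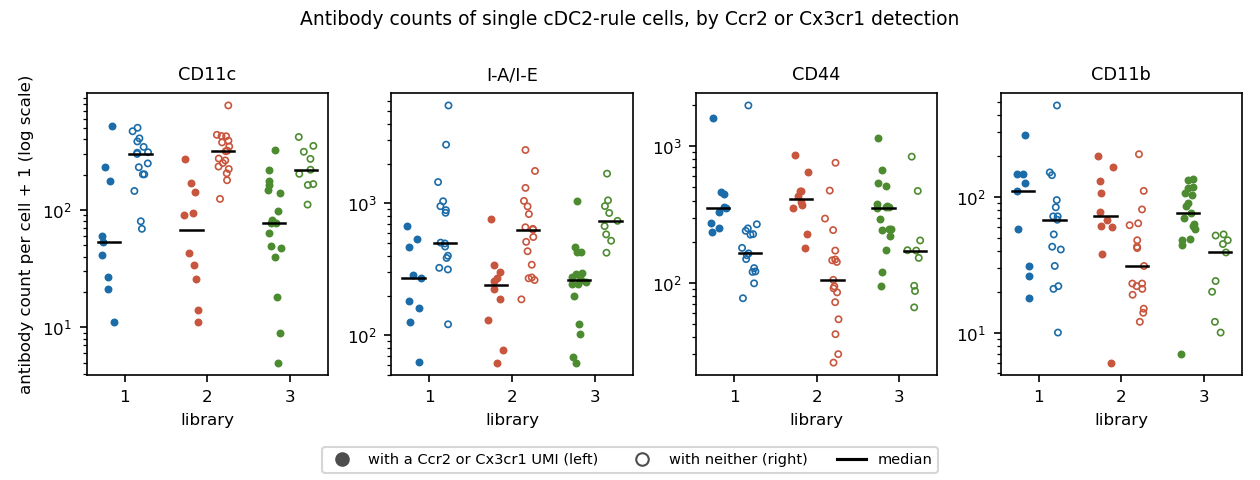
Antibody counts of single cDC2-rule cells plus 1 (log axis) for CD11c, I-A/I-E, CD44 and CD11b in libraries 1 to 3, with cells that held a Ccr2 or Cx3cr1 UMI filled at the left and the others open at the right, and the median as a line. The CD11c medians of the cells with either gene are 52, 66 and 76, below 299, 315 and 219 in the cells with neither, and single cells overlap.

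In RNA, 30 of 3752 genes were higher (0.8%) and 12 lower (0.32%) in the cells with Ccr2 or Cx3cr1, these 2 genes themselves among the 30. Lyz2, the lysozyme gene of monocytes and macrophages, stood at 3713, 4775 and 2663 CPM in cells with either gene, against 498, 56.9 and 63.7 CPM in cells with neither. Ahnak, a giant scaffold protein, stood at 988, 675 and 1355 CPM against 138, 0 and 0 CPM. Vim, the gene of vimentin, stood at 1442, 1410 and 1450 CPM against 215, 187 and 239 CPM. The libraries did not overlap for any of the 3.

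Crip1, Lgals1, S100a10, Wfdc17, Ccl6, Ccl9 and Fn1 were also higher. Crip1 stood at 3395 CPM (3190 to 3611) in cells with Ccr2 or Cx3cr1, against 291 CPM (236 to 355) in cells with neither, and Lgals1, the gene of galectin-1, at 342 CPM (278 to 415) against 18.2 CPM (6.67 to 39.5). Ccl9, a chemokine, gave 51 UMIs in cells with either gene and none in cells with neither. Cd209a stood at 420, 604 and 793 CPM against 138, 130 and 47.8 CPM, and 30 of the 36 cells held a Cd209a UMI, against 14 of the 41. Cd209a is a gene of the rule, so its difference is shaped in part by the choice of cells. Itgax, also a gene of the rule, had a lowest count of 1 UMI in cells with neither and 0 in cells with either gene. H2-DMb1, a chain of the peptide-loading chaperone, stood at 818, 687 and 586 CPM against 194, 122 and 191 CPM.

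Lower in cells with Ccr2 or Cx3cr1 were Ltb, Jak2, Tbc1d4, Bcl2a1b, Plxnc1, Elmo1, Mdh2, Ppp1r14a, Rogdi, Asb2 and Ccl5, with 1 further gene. Ltb stood at 125, 118 and 246 CPM in cells with either gene, against 478, 651 and 765 CPM in cells with neither. Bcl2a1b, a survival factor of the BCL2 family, stood at 125, 82.9 and 143 CPM against 450, 870 and 462 CPM. Jak2, a cytokine receptor kinase, stood at 102, 142 and 151 CPM against 395, 407 and 382 CPM.

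Flt3 did not separate the 2 kinds of cell (281 CPM, 224 to 348, in cells with Ccr2 or Cx3cr1, against 254 CPM, 203 to 315, in cells with neither), nor did S100a4 (2331 against 1911 CPM) or Cd7 (285 against 333 CPM). Clec10a gave 36 UMIs in cells with either gene and none in cells with neither. Kit stood at 97.1 CPM (65.0 to 140) against 254 CPM (203 to 315) and Cd4 RNA at 3 UMIs against 24. None of these was called. Median depth was 9276 UMIs in cells with Ccr2 or Cx3cr1 and 7888 UMIs in cells with neither. When the cells were divided after thinning to 2000 UMIs, 9 genes were higher and 5 lower, 8 and 4 of them shared with the full division.

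Lyz2 itself was concentrated. In 11 cells with at least 20 Lyz2 UMIs (6, 3 and 2 in libraries 1, 2 and 3; 21 to 218 UMIs each) lay 92.8% of its UMIs, and no other cell held more than 8. Of these 11 cells, 10 held a Ccr2 or Cx3cr1 UMI. The 11 had a median CD11c antibody count of 20 (4 to 514), against 203 (17 to 775) in the other 66. The medians of the monocyte-marker cells were 15, 17 and 18 in libraries 1, 2 and 3. F13a1, a coagulation factor gene of monocytes, stood at 143 CPM (79.8 to 235) in the 11 cells, against 1.91 CPM (0.0484 to 10.6), and Ccr2 at 799 CPM (637 to 989) against 170 CPM (136 to 209). Flt3 was detected in 10 of the 11 and stood at 143 CPM (79.8 to 235), against 292 CPM (248 to 342) in the others. Without these 11 cells, 12 genes were higher and 5 lower between cells with and without Ccr2 or Cx3cr1, all but 1 of the 12 among the 30 and all 5 among the 12.

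Between the libraries, 205 of 3124 genes with at least 50 CPM differed by 2 times or more from the highest to the lowest library with intervals that did not overlap (6.56%). The highest library was 1 for 90 of these genes, 2 for 46 and 3 for 69. Each library is 1 pool of mice, so these values describe libraries and not ages or treatments. In an alternative chosen after the data had been seen, the UMIs of a gene in its leading cell were left out in every library. The totals of the libraries were kept. Of the 205 genes, 125 were still called, and a call without its leading cell below refers to this.

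Ccl5 stood at 176 CPM in library 1, 236 CPM in library 2 and 651 CPM in library 3, and was still called without its leading cell. Irf8 stood at 64.5, 91.6 and 206 CPM and Fcgr2b, the inhibitory IgG receptor, at 47.3, 96.5 and 217 CPM. Both remained called without their leading cells, and library 3 was the highest for all 3 genes. Gpr183, at 60.2, 86.8 and 180 CPM, and Rbpj, the NOTCH pathway transcription factor, at 120, 130 and 312 CPM, had the same order.

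Other genes were highest in library 1. Id2 stood at 464, 333 and 148 CPM in libraries 1, 2 and 3, Cd7 at 404, 318 and 185 CPM, Ifitm1 at 778, 140 and 52.9 CPM and Ifi27l2a at 830, 381 and 455 CPM. Il1b was highest in library 1 as well, at 262, 38.6 and 111 CPM, and all 5 remained called without their leading cells. Nfkbia was highest in library 2 (181, 448 and 302 CPM), as was Samsn1 (73.1, 246 and 159 CPM). The MHC class II genes differed little, with 1 gene called (H2-DMb2 at 292, 246 and 138 CPM), and that call was lost without its leading cell.

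Of the 10 genes that differed most between libraries, 7 had 74.7% to 91.9% of their UMIs of the highest library in 1 cell, and Hbb-bs, Ifitm1 and Ly6a had 18.8%, 27.1% and 40.4%. Ly6a, an interferon-inducible surface protein, stood at 245, 4.82 and 21.2 CPM and remained called without its leading cell. S100a9 gave 181, 1 and 0 UMIs and S100a8 gave 120, 1 and 1 UMIs in libraries 1, 2 and 3, and 1 cell of library 1 held 147 and 91 of them. That cell also had 567 Ly-6G antibody counts, against a median of 13, and 343 CD11c counts. Lcn2 and C3, which the study followed with S100a8 and S100a9 as inflammation genes, stood at 30.1, 0 and 10.6 CPM and at 12.9, 28.9 and 26.5 CPM, below the level at which libraries were compared. Hbb-bs gave 85, 2 and 14 UMIs, spread over 39 cells, and over all kept cells the red cell list also summed highest in library 1, at 63033 CPM against 2253 and 5690 CPM in libraries 2 and 3.

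Cell cycle genes gave a similar picture. Their list summed to 3884, 1644 and 1392 CPM in libraries 1, 2 and 3. Of 8 measured genes 6 were called, but 1 call was left without the leading cells of each gene. One cell of library 1, with 16649 UMIs and 500 CD11c antibody counts, held 41 of all 59 Mki67 UMIs, 65 of 92 Stmn1 UMIs, 34 of 37 Pclaf UMIs and 157 of 201 Hist1h1b UMIs. Without it the list stood at 2349 CPM in library 1, still above libraries 2 and 3. Over all kept cells the list was also highest in library 1, at 3256 CPM against 1298 and 1368 CPM in libraries 2 and 3.

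In library 3, 1 cell held 27 of 43 Vcam1 UMIs, 31 of 39 Slc40a1 UMIs and 24 of 36 Hmox1 UMIs, genes of red pulp macrophages. It carried 107 F4/80 counts, against a median of 27, and 239 SIRPα counts, against a median of 68. Another held all 19 Gzma UMIs, 46 of 213 Ccl5 UMIs and 53 NK-1.1 antibody counts, against a median of 6. A cell with 124 Cst3 UMIs carried 263 CD8a, 493 CD24 and 26 XCR1 antibody counts, against medians of 26, 145 and 10, and held no Irf8 UMI. Apol7c, a gene of cDC1s in the spleen, lay with 38 of its 49 UMIs in yet another cell of library 3, whose CD8a and XCR1 counts were 28 and 14.

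**Figure D5:**
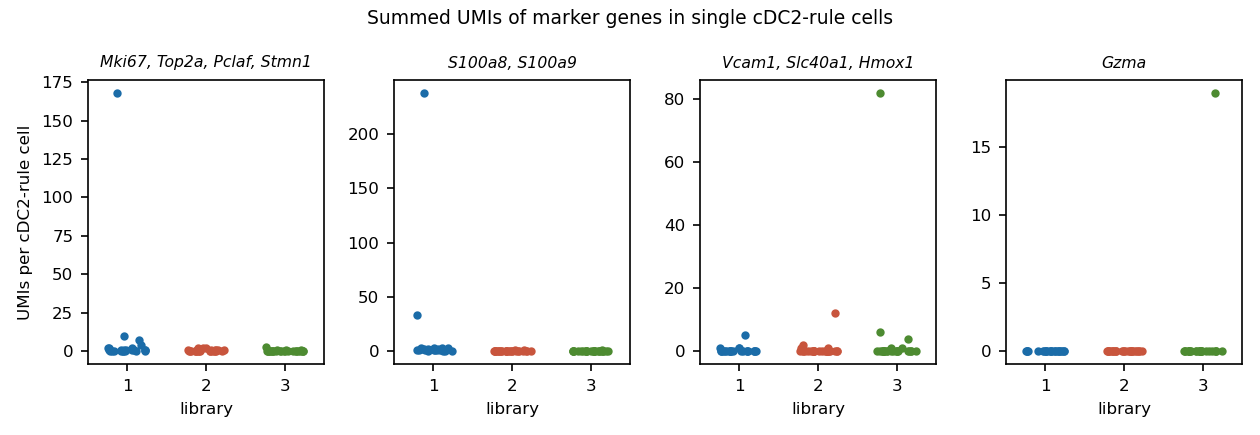
Summed UMIs per cDC2-rule cell of 4 cell cycle genes, S100a8 with S100a9, 3 macrophage genes and Gzma, with 1 point per cell in libraries 1 to 3. Most cells lie near 0, and 1 cell stands far above the rest for each set: in library 1 for the cell cycle genes and for S100a8 with S100a9, and in library 3 for the macrophage genes and Gzma.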

How the data were processed

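The deposited counts are UMIs of 31053 genes and antibody counts of 34 antibodies per barcode. Per the labels and file header, the authors aligned reads to mm10 with Cell Ranger (5.0.1 in the header), joined 3 libraries into 1 matrix and analysed it in Seurat, with limits of 300 to 5000 genes and 10% mitochondrial UMIs. From these counts the rule was applied per barcode, UMIs were summed per library and scaled to CPM, and intervals were taken with scipy 1.17.1. Doublets were called with Scrublet in scanpy 1.11.5. Antibody values are shares of all antibody counts of a cell set. A library with under 3 counts of a gene was set to 3 when ratios were made. Coordinates come from GENCODE for mm10. The cells and gene lists were chosen with earlier results of these data known. Named genes are those of the rule, up to 4 of the highest members of each list, any list member called, and the 10 largest differences in each direction, with later additions stated and some features not reported here. Calls were tried on simulated Poisson counts with known changes. These held no spread between cells, so they do not cover calls that rest on a single cell. Alternatives were TMM scaling (edgeR 4.0.16), thinning, per-cell means, stricter rules and leaving out each library.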

Additional observations from a re-analysis of the deposited data

How the results depend on the processing

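The share of cDC2-rule cells among all kept cells, 0.382%, was 0.208% when 3 of the 5 markers were required (0.146% in library 2 and 0.142% in library 3), 0.485% with a lower limit of 1000 genes, and 0.228% without cells holding a Ms4a1 or Cd79b UMI (0.186% in library 2 and 0.166% in library 3). Thinning put library 1 at 0.365%. Against cDC1-rule cells, 29 genes were higher and 33 lower when cells holding a Ms4a1 or Cd79b UMI were left out of both sets. Of these, 23 and 31 were shared with the full sets. By the mean of per-cell CPM 42 were higher, and by 1 ratio over the libraries together, an alternative added after seeing the data, 317 were higher and 177 lower. Leaving out 1 library gave 86 to 129 higher genes, the most without library 3, and 60 to 63 lower genes, since fewer libraries then had to pass. Between Clec4a4-only and Cd209a-only cells, the 2 lower genes became 1 with 3 markers required and by the per-cell mean and 0 after thinning, and without cells holding a C1qa, C1qb or C1qc UMI 1 gene was higher and 1 lower. Leaving out 1 library gave 1 to 6 higher and 2 to 14 lower genes, the most lower without library 2. The division by Ccr2 or Cx3cr1 gave 9 higher and 5 lower genes after thinning and 12 higher and 5 lower without the 11 cells of high Lyz2, both added after seeing the data. The CD11c ratio of cDC2-rule to cDC1-rule cells, 1.08, turned to 0.834 as a centred log ratio and ranged from 0.980 without library 1 to 1.24 without library 3. The causes were not tested. The other 212 values of these comparisons kept their direction and their side of the threshold or moved by less than their error or by under 1.5 times. Among single genes, 428 values did likewise, 52 lost a call, 6 gained one and 19 moved. TMM scaling changed no count. The Clec4a4-only comparison was not run without cells holding a Ms4a1 or Cd79b UMI, since a library then held no Clec4a4-only cell. Depth limits what 77 cells can show: a gene with no UMI may reach 5.87 CPM. Cell sets were compared within each library, but between the age and treatment groups no paired analysis was possible because the groups share no replicate numbers beyond 1 library each and no label ties a library to a group.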

Other observations

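Several genes outside the fixed lists, named after their values had been seen, were among the 64 higher and 50 lower genes between cDC2-rule and cDC1-rule cells. Tmem176a and Tmem176b, neighbouring genes of membrane proteins, stood at 444 and 568 CPM in cDC2-rule cells, against 141 and 175 CPM in cDC1-rule cells. Ms4a6b and Ms4a6c, of the same family as Ms4a4c, stood at 283 and 631 CPM, against 77.3 and 167 CPM. Ccnd1, the gene of cyclin D1, stood at 752 CPM against 193 CPM, S100a6, a calcium-binding protein, at 1673 CPM against 464 CPM, Hpgd, which breaks down prostaglandins, at 177 CPM against 41.4 CPM, and Fgr, a SRC family kinase, at 251 CPM against 60.7 CPM.

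On the lower side stood Cd24a, the gene of CD24, at 23.9 CPM in cDC2-rule cells against 295 CPM in cDC1-rule cells, the same direction as its antibody. Cd81 and Cd9, tetraspanins, stood at 41.4 and 110 CPM against 235 and 259 CPM. Btla, an inhibitory receptor, stood at 27.0 CPM against 173 CPM, Mpeg1, a gene of a pore-forming protein, at 277 CPM against 1195 CPM, and Txn1, the gene of thioredoxin, at 164 CPM against 815 CPM. Both sets of cells were chosen on their RNA, so these values are descriptions with no test.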
